A study of Mus musculus with 6 samples.

Results

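Inhibins, activins, the follistatin family and anti-Müllerian hormone (AMH) were followed in testes of transgenic AROM+ mice and of wild-type (WT) mice. The AROM+ transgene gives an excess of aromatase, which makes oestrogens out of androgens. The genes were taken as every non-control probe that the array design names Inha, Inhba, Inhbb, Fst, Fstl3, Acvr1b, Acvr2a, Acvr2b, Amh or Amhr2, which gave 10 of the 34844 gene names on the array, with 12 of its 55681 probes. Acvr1b and Acvr2a have 2 probes each and the other genes 1. The AROM+ group was 3 whole testes from transgenic males and the WT group 3 whole testes from wild-type males, all at 5 months of age and on the C57BL/6 background, with 1 one-colour Agilent array per testis. The labels used here do not name the promoter that drives the transgene or the species of its aromatase sequence.

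Inhibins and activins are dimers of the TGF-β family that share subunits: an α subunit (Inha) joined to a β subunit (Inhba or Inhbb) makes an inhibin, and a pair of β subunits makes an activin. Inhibin from Sertoli cells lowers the release of follicle-stimulating hormone by the pituitary, activins raise it and also act within the testis, and follistatin (Fst) and follistatin-like 3 (Fstl3) bind activins and keep them from their receptors. AMH is a related hormone of Sertoli cells, high before puberty and low in the adult testis, where androgens hold it down.

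Of the family, the inhibin α subunit, the activin A subunit and follistatin were higher in AROM+ testes. Inha was 1.92-fold higher, Inhba 2.75-fold and Fst 1.82-fold, each without overlap between the groups. The β-B subunit, Fstl3, the activin type II receptors, Amh and its receptor did not pass the test. Of the 2 probes of Acvr1b the dimmer was lower in AROM+ testes and the brighter did not pass. In all, 3 of 12 probes were higher and 1 was lower at an adjusted p under 0.05 (limma, adjusted over 42626 tested probes), where 14.0% of all tested probes were higher, 30.4% lower and 44.4% either. All 12 probes were well above background on all 6 arrays, so none entered through 1 group alone. Levels are log2 intensity relative to the 75th percentile of the array. Differences are AROM+ minus WT on the log2 scale with the standard error (SE) from limma. Probes are called dim or bright by their signal, and levels of different probes are not read as relative amounts of transcript.

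The probes of Inha, Inhba and Amh are shown as the sequences behind the α subunit, the activin A subunit and the hormone. Capitals mark triplets TGT or TGC that adjoin or stand 1 triplet apart, which code for cysteine, the residue whose bonds hold the folded growth factor domain of the TGF-β family together.
Inha: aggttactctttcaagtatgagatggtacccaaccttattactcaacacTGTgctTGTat
Inhba: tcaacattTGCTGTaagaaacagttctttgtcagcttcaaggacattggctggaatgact
Amh: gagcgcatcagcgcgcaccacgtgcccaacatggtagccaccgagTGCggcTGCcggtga
The probe of Inha (A_52_P401484) lies at chr1:75506675-75506734, that of Inhba (A_51_P239750) at chr13:16118634-16118693 and that of Amh (A_55_P2062953) at chr10:80270334-80270393, all on the plus strand of NCBI37/mm9 as the files give it.

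Between 76.6% and 80.6% of the spots were well above background on the 6 arrays, no spot was saturated, and the percentile used for scaling ran from 4266.6 to 5451.8 on AROM+ arrays and from 3698.5 to 4500.6 on WT arrays. Endogenous Cyp19a1, the mouse aromatase gene, was at −0.30 ± 0.18 (SE, limma adjusted p = 0.220), which does not check the transgene. The arrays lie on 1 slide with AROM+ testes in one row and WT testes in the other, so row and genotype cannot be told apart. The median difference over all tested probes was −0.19, and relative to it the differences of Inha, Inhba and Fst were 1.13, 1.65 and 1.05. In whole testes, fewer cells of a type and less RNA per cell cannot be told apart.

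Inha encodes the subunit that all inhibins share and is made by Sertoli cells and, at lower levels, Leydig cells. Its level was 4.29, 4.32 and 3.84 in AROM+ testes, against 3.21, 3.47 and 2.96 in WT testes. Every AROM+ testis lay above every WT testis, and AROM+ replicate 3 was the lowest of its group, as WT replicate 3 was of its own. The difference was 0.94 ± 0.18 (SE), a 1.92-fold rise with a 95% interval of 1.42 to 2.59 (limma, adjusted p = 0.00925). It passed the threshold under all 19 other settings tried, at 0.78 to 1.17.

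Inhba encodes the β-A subunit of activin A and inhibin A. Its level was −2.68, −3.49 and −3.48 in AROM+ testes, against −4.61, −4.26 and −5.14 in WT testes. The groups did not overlap, with AROM+ replicate 1 standing above the other AROM+ testes and WT replicate 3 below the other WT testes. The probe was dim: its processed intensity was 381.7 to 852.1 in AROM+ testes and 120.3 to 192.9 in WT testes, where the dimmest spots well above background were at 33.2 to 52.7. The difference was 1.46 ± 0.30 (SE), a 2.75-fold rise with a 95% interval of 1.69 to 4.46 (limma, adjusted p = 0.0103), and without AROM+ replicate 1 it was 1.19 (adjusted p = 0.0210). Over all settings it ran from 1.11 to 1.66 and passed the threshold in each.

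Inhbb encodes the β-B subunit, which pairs with the α subunit in inhibin B, the main inhibin of the male. Its level was 0.64, 0.53 and 0.63 in AROM+ testes, against 0.46, 0.46 and 0.57 in WT testes. The groups overlapped, and the spread within each was small (SD 0.058 in AROM+ and 0.064 in WT, n = 3 each). The difference was 0.10 ± 0.09 (SE) and did not pass the test (limma, adjusted p = 0.379), with a 95% interval of the fold from 0.926 to 1.24. The within-array ratio of Inha to Inhbb, which no scaling of whole arrays can move, was at 3.22 to 3.79 in AROM+ testes and at 2.39 to 3.01 in WT testes on the log2 scale. It was higher by 0.84 in AROM+ testes without overlap (exact permutation test, two-sided p = 0.10, the smallest that 3 against 3 allow, for a ratio chosen after its values were seen).

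**Figure D1:**
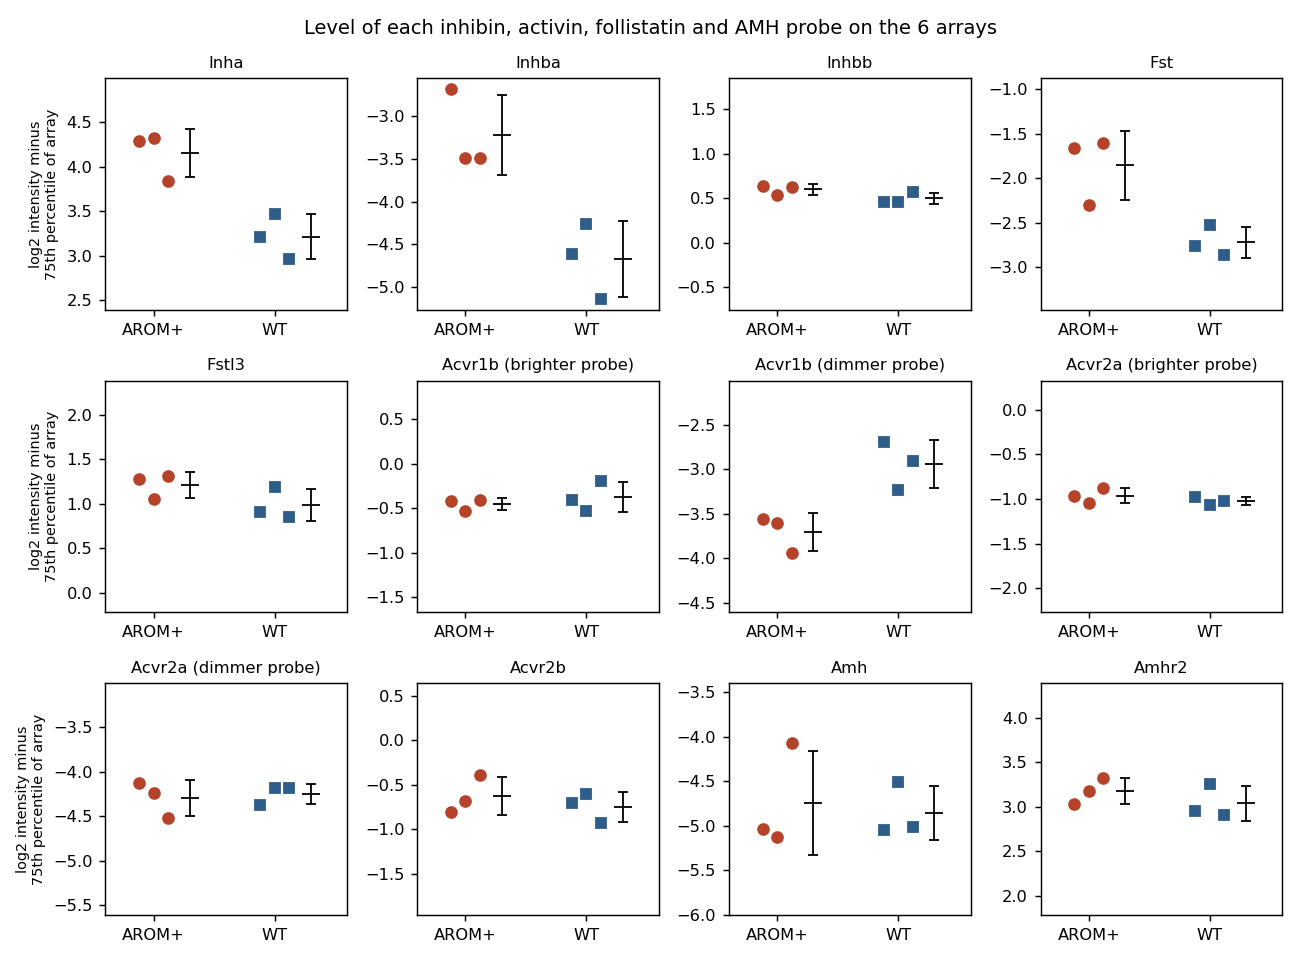
Level of each probe on each array (y axis, log2 intensity minus the 75th percentile of the array, each panel on its own range of levels). Circles are AROM+ testes, squares WT testes, and the bar beside each group is its mean ± SD (n = 3). Inha, Inhba and Fst lie apart with AROM+ on top, the dimmer Acvr1b probe lies apart with AROM+ below, and the groups overlap in the other panels.

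Follistatin binds activin almost irreversibly and is itself raised by activin in many cells. Fst was at −1.66, −2.31 and −1.60 in AROM+ testes, against −2.76, −2.53 and −2.87 in WT testes. The groups did not overlap, but AROM+ replicate 2 came within a short distance of WT replicate 2, and the SD was 0.39 in AROM+ and 0.18 in WT (n = 3 each). The difference was 0.86 ± 0.21 (SE), a 1.82-fold rise with a 95% interval of 1.30 to 2.55 (limma, adjusted p = 0.0164). Leaving out WT replicate 1 (0.84, adjusted p = 0.0520) or WT replicate 3 (0.79, adjusted p = 0.0601) ended the call. The within-array ratio of Inhba to Fst lay at −1.88 to −1.02 in AROM+ and −2.28 to −1.74 in WT on the log2 scale, so the groups overlapped (exact permutation test, two-sided p = 0.30).

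Fstl3, the other activin-binding protein of the family, was at 1.27, 1.05 and 1.32 in AROM+ testes, against 0.90, 1.19 and 0.86 in WT testes. WT replicate 2 lay above AROM+ replicate 2. The difference of 0.23 ± 0.13 (SE) did not pass the test (limma, adjusted p = 0.187), and its 95% interval of the fold ran from 0.946 to 1.45.

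Acvr2a and Acvr2b encode the type II receptors that activins bind first. The brighter Acvr2a probe was at −0.97, −1.05 and −0.88 in AROM+ testes, against −0.98, −1.07 and −1.02 in WT testes, a difference of 0.06 ± 0.09 (SE, limma adjusted p = 0.631). Its dimmer probe, 1105 bases away on chromosome 2, differed by −0.05 ± 0.13 (SE, adjusted p = 0.779). Acvr2b was at −0.81, −0.69 and −0.39 in AROM+ testes, against −0.70, −0.61 and −0.93 in WT testes, a difference of 0.12 ± 0.14 (SE, adjusted p = 0.519). The groups overlapped for all 3 probes, and the 95% intervals of the fold were 0.895 to 1.21 and 0.779 to 1.20 for the Acvr2a probes and 0.857 to 1.38 for Acvr2b.

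Acvr1b encodes the type I receptor that activin with its type II receptor recruits, and which then phosphorylates SMAD2 and SMAD3. Its 2 probes gave different answers. The dimmer probe, which the array annotation ties to a RefSeq transcript (A_55_P2123957, at chr15:101042850-101042909), was at −3.56, −3.60 and −3.94 in AROM+ testes, against −2.69, −3.23 and −2.91 in WT testes. All AROM+ testes lay below all WT testes, a difference of −0.76 ± 0.17 (SE, limma adjusted p = 0.0144), lost without WT replicate 3 (−0.74, adjusted p = 0.0513). The brighter probe, tied to a cDNA clone and lying 1106 bases further along (A_52_P373893, at chr15:101043956-101044015), was at −0.42, −0.53 and −0.41 in AROM+ testes, against −0.40, −0.53 and −0.19 in WT testes, a difference of −0.08 ± 0.11 (SE, adjusted p = 0.609). The within-array ratio of the dimmer to the brighter probe was at −3.54 to −3.07 in AROM+ testes and at −2.72 to −2.28 in WT testes, a change of −0.68 (exact permutation test, two-sided p = 0.10, the smallest possible, for a ratio also chosen after its values were seen). What separates the probes was not tested.

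Amh was dim in all 6 testes, with a processed intensity of 165.9, 127.0 and 253.7 in AROM+ and 135.8, 161.8 and 131.4 in WT. Its level was −5.04, −5.13 and −4.07 in AROM+ testes, against −5.05, −4.51 and −5.02 in WT testes. The groups overlapped: AROM+ replicate 3 was the highest of the 6 testes and AROM+ replicate 2 the lowest. The difference was 0.11 ± 0.30 (SE) and did not pass the test (limma, adjusted p = 0.777), and without AROM+ replicate 3 it was −0.22 (adjusted p = 0.358). The 95% interval of the fold, 0.658 to 1.78, was the widest of the 12 probes on the log2 scale.

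Amhr2, the AMH type II receptor, found on Sertoli and Leydig cells, was at 3.03, 3.17 and 3.33 in AROM+ testes, against 2.96, 3.26 and 2.91 in WT testes. The groups overlapped, with a difference of 0.14 ± 0.13 (SE, limma adjusted p = 0.429) and a 95% interval of the fold from 0.881 to 1.37.

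**Figure D2:**
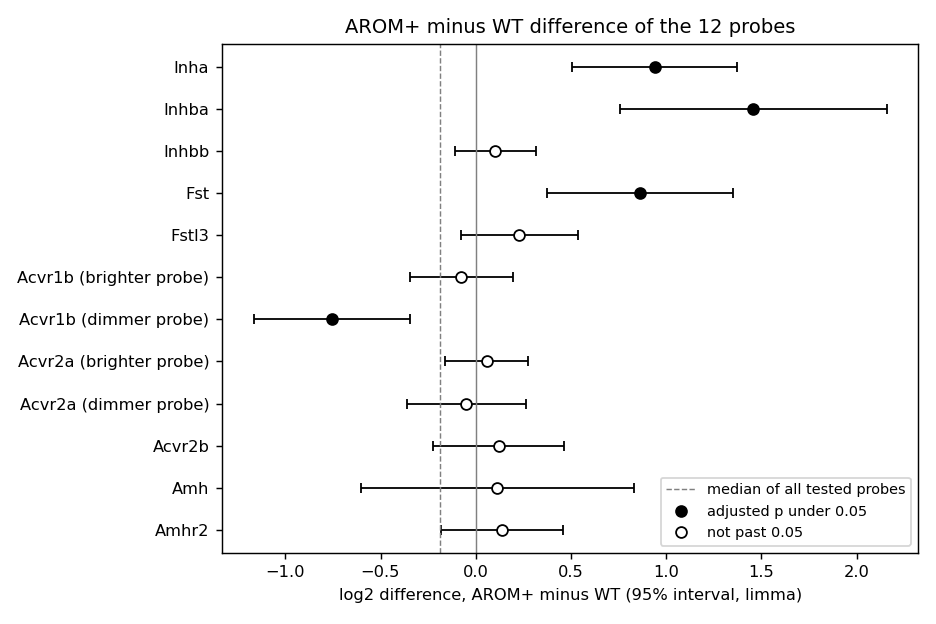
Difference of each probe (x axis, log2, AROM+ minus WT) with its 95% interval from limma. Filled points passed an adjusted p of 0.05, and the dashed line is the median of all 42626 tested probes (−0.19). The intervals of Inha, Inhba and Fst lie above 0, that of the dimmer Acvr1b probe below 0, and those of the other 8 probes include 0.

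By groups that did not overlap, 3 of the 12 probes had AROM+ above WT and 1 had AROM+ below WT, where 17.7% and 40.4% of all tested probes did so. The median difference of the 12 probes was 0.12, against −0.19 over all tested probes. When every array was scaled to the spike-in probes instead, the median of all tested probes moved to −0.35, and Inhbb, the brighter Acvr2a probe, Acvr2b, Amh and Amhr2 took differences of the opposite sign, between −0.10 and −0.02, all far from the threshold. Inha, Inhba, Fst and the dimmer Acvr1b probe kept their direction and their call under that scaling.

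**Figure D3:**
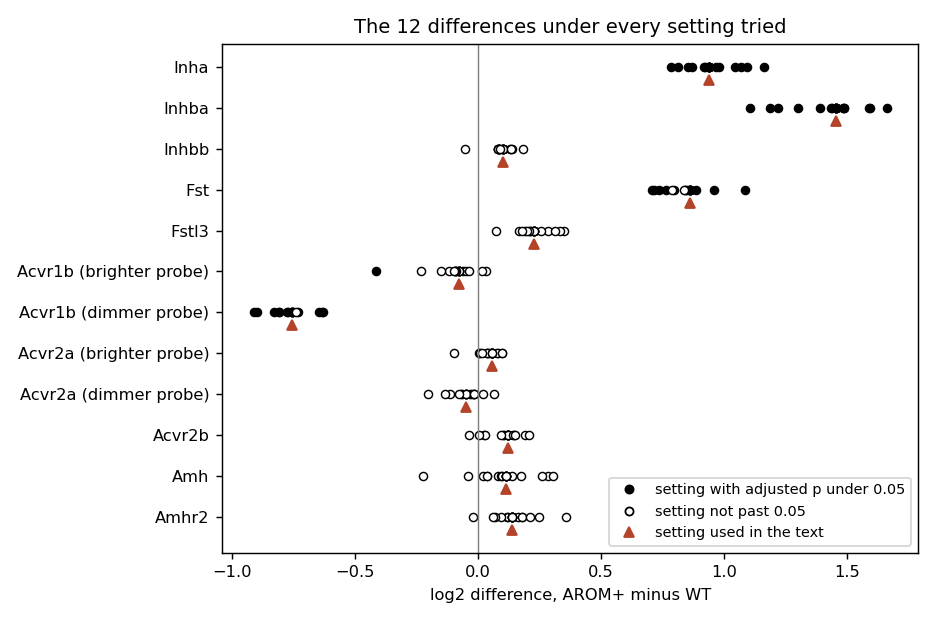
The 12 differences (x axis, log2, AROM+ minus WT) under each setting tried, with filled points where the adjusted p was under 0.05 and triangles for the setting used in the text. Inha and Inhba stay above 0 and called throughout, Fst has 2 open points, and the filled point in the row of the brighter Acvr1b probe (−0.42) is the mean of both Acvr1b probes.

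Receptors and binding proteins around the family were partly higher in AROM+ testes. Of 13 such genes 8 were measured above background, and of these 5 were higher and 0 lower at the same threshold (median difference 0.95). Over all tested probes 14% were higher and 30.4% lower. Tgfbr3, betaglycan, the co-receptor that lets inhibin block activin receptors, was at 1.11, 1.31 and 1.20 in AROM+ testes, against 0.15, 0.17 and 0.16 in WT testes, a difference of 1.05 ± 0.09 (SE, limma adjusted p = 0.00245). Fstl1, a secreted follistatin-related protein, was at 0.92 ± 0.19, Wfikkn2, which binds related ligands, at 0.97 ± 0.21, and Acvr1, a type I receptor used by AMH and BMPs, at 2.03 ± 0.46. Acvr1 was at 1.58, 1.21 and −0.31 in AROM+ testes, against −1.15, −1.05 and −1.40 in WT testes, so AROM+ replicate 3 lay closest to WT. Acvr1c, a further activin-type type I receptor singled out after its values were seen, had the same lowest AROM+ testis, with −2.36, −3.22 and −5.26 in AROM+ testes against −6.25, −6.14 and −6.53 in WT testes (2.70 ± 0.67, adjusted p = 0.0185). The Acvr1c probe was dim: its WT levels lay below the lowest level of any family probe (−5.14, Inhba in WT replicate 3). With normexp background correction the difference of Acvr1c was 1.77 (limma, adjusted p = 0.0172). Leaving out AROM+ replicate 2, WT replicate 1 or WT replicate 3 ended the call of Acvr1c, and leaving out WT replicate 3 that of Acvr1. Without WT replicate 3 the genes called higher were 3 of the 8, where 8.97% of all tested probes were higher. The β-subunit gene Inhbe was at −0.37 ± 0.17 (adjusted p = 0.121), and Inhbc was not above background. Tdgf1, picked after its values were seen, was not called by its brighter probe (−0.29 ± 0.14, adjusted p = 0.133). Its other probe was called lower (−0.53, limma adjusted p = 0.00765). With the mean of each gene's probes, 1 gene of this list was called lower.

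In the SMAD pathway below the activin receptors 7 of 14 genes were higher and 3 lower (median difference 0.46), beside 14% and 30.4% of all tested probes. Smad3, a transducer of activin, was at −0.74, −0.71 and −0.48 in AROM+ testes, against −1.55, −1.45 and −1.50 in WT testes (0.85 ± 0.11, limma adjusted p = 0.00394). The repressor Ski was at 1.00 ± 0.16, the ubiquitin ligase Nedd4l at 0.60 ± 0.11 and Pmepa1, a SMAD-induced inhibitor of the pathway, at 1.26 ± 0.23. The genes called lower, named because they are few, were the ubiquitin ligases Smurf1 (−0.50 ± 0.10) and Smurf2 (−0.35 ± 0.09), and Foxh1, a DNA-binding partner of SMAD2 (−0.51 ± 0.11). Scaled to the spike-in probes, 3 SMAD pathway genes were higher, and 4 were when WT replicate 3 was left out. Over all tested probes 6.67% and 8.97% were higher in these settings. Smurf2 lost its call with the spike-in scaling and without AROM+ replicate 1 or any 1 of the WT testes, and Nedd4l with the spike-in scaling. Of the 3 probes of Smurf2, 2 were called lower.

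Of 16 measured genes that transduce AMH or govern Amh, 10 were higher and 1 lower (median difference 0.56), while Amh itself did not pass the test. Over all tested probes 14% were higher and 30.4% lower. Gata4, a transcription factor of Sertoli and Leydig cells, was at 1.68, 1.43 and 1.32 in AROM+ testes, against 0.50, 0.76 and 0.39 in WT testes (0.93 ± 0.14, limma adjusted p = 0.00549). The SMAD target Id1 was at 1.23 ± 0.22. Smad1, a transducer of AMH and BMP signals, was lower at −0.59 ± 0.11, with its other probe at −0.55 ± 0.21 and not called. Smad5, picked after its values were seen, was not called by its brighter probe (0.17 ± 0.11). Its other probe was called lower (−0.47 ± 0.16). Sox9, the Sertoli cell factor that opens Amh expression in the fetal testis and is added here although not called, was at 0.20 ± 0.19 (adjusted p = 0.431). The count of 10 higher was 6 with spike-in scaling, 6 without WT replicate 1 and 5 without WT replicate 3. Over all tested probes 6.67%, 9.4% and 8.97% were higher in these settings.

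Of 12 genes that govern the inhibin subunit genes 7 were higher and 2 lower (median difference 0.56), among the higher ones Gata4 of the preceding group. Over all tested probes 14% were higher and 30.4% lower. Nr5a1, the nuclear receptor SF-1, which activates Inha, was at 2.83, 2.85 and 2.84 in AROM+ testes, against 2.24, 2.53 and 2.13 in WT testes (0.54 ± 0.12, limma adjusted p = 0.0138), and lost its call with spike-in scaling and without WT replicate 1. Fshr, the receptor of follicle-stimulating hormone, which drives inhibin in Sertoli cells, was at 0.86 ± 0.27 (adjusted p = 0.0375). Crem, a cAMP-responsive regulator that is abundant in spermatids, was lower at −0.44 ± 0.09, a call lost with quantile normalization (−0.22) and with spike-in scaling. The other gene called lower, Prkar1a, was at −0.26 ± 0.09 by its brighter probe and called higher at 0.54 ± 0.08 by its other probe. The lower call of Prkar1a held in 7 of 20 settings: it was lost with normexp, quantile normalization, spike-in scaling, the deposited table, no filter, the replicate block and each single array left out, and the mean of its probes was at 0.14. Esr1 also had probes called in opposite directions. The number higher was 4 without AROM+ replicate 2, 4 without AROM+ replicate 3, 2 without WT replicate 1 and 3 without WT replicate 3, and with spike-in scaling it was 3. Over all tested probes 12.2%, 12.2%, 9.4%, 8.97% and 6.67% were higher in these settings, in that order. The number lower was 1 when any single array was left out. Fshr, Prkar1a and Esr1 were picked after their values were seen.

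**Figure D4:**
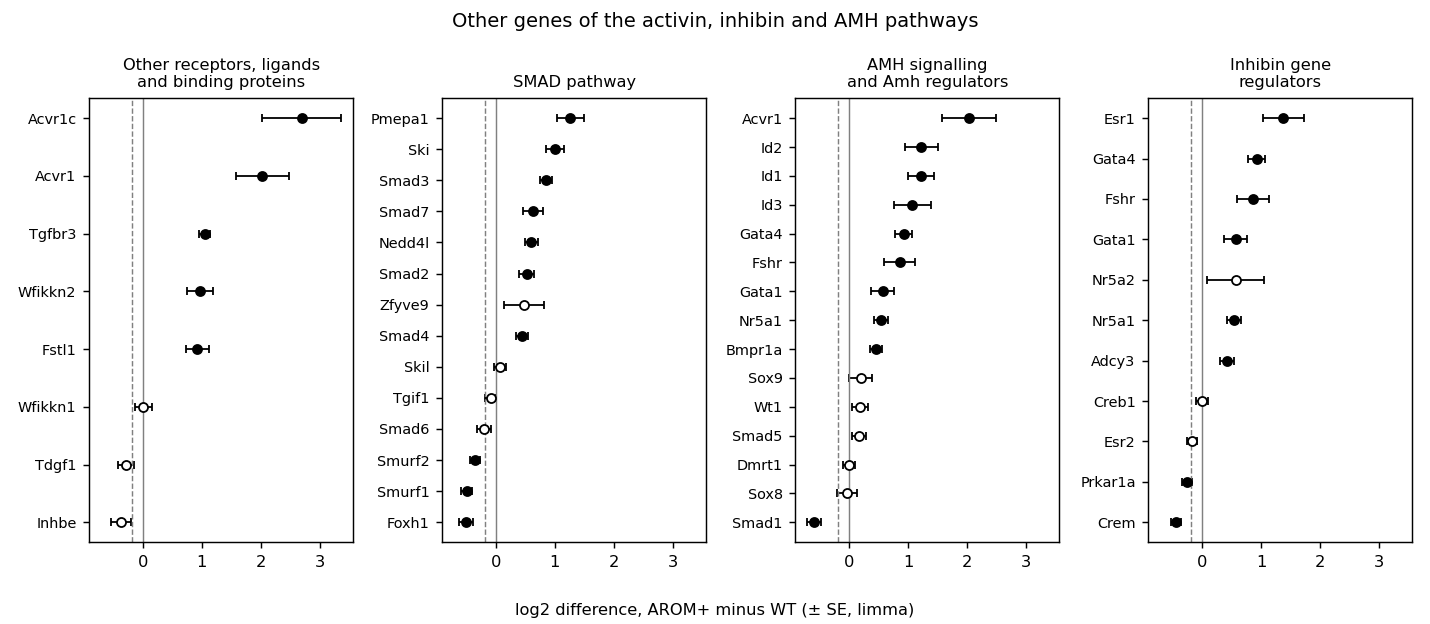
Differences of other genes of the pathways (x axis, log2, AROM+ minus WT, ± SE from limma), each gene by its brightest probe. Filled points passed an adjusted p of 0.05, the solid line is 0 and the dashed line the median of all tested probes. Acvr1c, Acvr1, Esr1 and Pmepa1 lie farthest to the right, and Smad1, Foxh1, Smurf1, Smurf2, Crem and Prkar1a are the called genes left of the dashed line.

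Markers of the cells that could carry these transcripts were counted in the same way, where 14.0% of all tested probes were called higher, 30.4% lower and 44.4% either. The summed level of a list is log2 of the sum of its relative intensities, so bright probes weigh most, and it is given for the text's scaling only. Sums of the Leydig and peritubular markers overlapped between the groups. Those of the other lists did not, but the Sertoli sums nearly touched (lowest AROM+ 6.59, highest WT 6.57). Of single tested probes, 17.7% had AROM+ above WT without overlap and 40.4% had AROM+ below WT. Among 20 Sertoli cell markers the test called 6 higher and 0 lower (median 0.26), with Gata4 at 0.93 and Trf, the transferrin gene, at 0.91. Their summed level was 6.59 to 6.85 in AROM+ testes and 6.32 to 6.57 in WT testes. Among 13 Leydig cell markers it called 4 higher and 0 lower (median 0.39, summed level 5.55 to 6.12 in AROM+ and 5.05 to 5.67 in WT). The steroid enzyme gene Hsd3b1 was at 1.30 and the prolactin receptor gene Prlr at 1.38. Below 0 but not called, and named after their values were seen, were Hsd17b3 (−1.08), Cyp17a1 (−0.42), Star (−0.40), Nr4a1 (−0.23) and Ces1d (−0.20). Among 15 macrophage markers the test called 12 higher and 2 lower, with Tyrobp at 2.68 and Ctss at 2.31 (median 1.94, summed level 6.43 to 6.85 in AROM+ and 5.76 to 6.17 in WT). Those called lower were Csf1r (−0.44) and Aif1 (−0.33). Itgam, named after its values were seen, was at −0.09 and not called. Among 10 fibroblast and matrix markers 7 were higher and 0 lower (median 0.80, summed level 4.88 to 5.36 in AROM+ and 4.0 to 4.42 in WT). Endothelial markers were higher in 8 of 10 and lower in 1 (summed level 2.39 to 2.75 in AROM+ and 2.06 to 2.33 in WT), peritubular muscle markers higher in 2 of 10 and lower in 1 (5.13 to 5.27 in AROM+ and 5.08 to 5.32 in WT), and germ cell markers higher in 1 of 16 and lower in 9 (7.57 to 7.63 in AROM+ and 7.81 to 8.22 in WT). Sertoli markers called higher were 3 without AROM+ replicate 3, WT replicate 1 or WT replicate 3, and 4 with spike-in scaling but 9 with quantile normalization. Leydig markers called higher were 7 without AROM+ replicate 3. Germ cell markers called lower were 3 without AROM+ replicate 1, 4 without WT replicate 1 or WT replicate 3, 3 with quantile normalization, 4 with spike-in scaling and 4 with the replicate block. Fibroblast and matrix markers called higher were 4 with spike-in scaling. Peritubular markers called higher were 0 without AROM+ replicate 1, 1 without AROM+ replicate 3 or any 1 of the WT testes, 0 with spike-in scaling and 4 with quantile normalization. Macrophage markers called higher were 12 in each of these settings, and those called lower were 0 or 1. No list had a marker that was not above background. Their part in the differences of Inha, Inhba and Fst was not tested.

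Tested probes outside the family were correlated with Inha and Amh, leaving out those without a gene name or named as clones or predicted genes. Among the genes searched, Slc38a1, an amino acid transporter (Pearson r = 0.9996), and Plxnb1, a semaphorin receptor (r = 0.9992), followed Inha most closely over the 6 arrays. Prlr, the prolactin receptor, came next (r = 0.9979). The differences of Slc38a1, Plxnb1 and Prlr were 1.71, 0.92 and 1.38. Prlr is also on the list of Leydig cell markers. The genes closest to Amh were Hist1h4j (r = 0.9972), the protease inhibitor gene Serpine2 (r = 0.9945) and Zrsr1 (r = 0.9935), with differences of 0.03, 0.08 and 0.05. These are descriptions over 6 arrays that fall into 2 groups and share 1 slide, picked as the highest values among the genes searched.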

How the data were processed

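The spot intensities are the authors' deposited output of Agilent Feature Extraction (10.7.3.1 per the file headers, 10.10 per the submitters' processing notes). Its processed signal, per the file headers, is the spot intensity after background subtraction. A deposited table of log2 values equals log2 of the processed signal minus about 1 constant per array (slope 1.00, genes not centred, direction and scale as in the scanner files, column medians −3.05, −3.09 and −3.02 in AROM+ and −3.12, −3.11 and −3.09 in WT).

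Here log2 of the processed signal minus the array's 75th percentile was used, without 3671 control spots and 123 to 192 flagged spots per array. Spots of a probe were averaged. Tested probes had a value on all 6 arrays and stood well above background throughout AROM+ or throughout WT (3 of 3 arrays). The test was limma's (version 3.58.1, lmFit and eBayes, under R 4.3.3) with Benjamini-Hochberg adjustment over 42626 probes. The fits were checked on simulated data, where 6% of log2 changes of 0.5, 80% of 1 and 100% of 2 were recovered. Of 149 calls there, 6 were false. Most changes of 0.5 were thus missed in the simulation. No probe of the family needed a bound. A listed gene stands by its brightest tested probe.

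Probes were named by the design's gene names. Of the 12 probes, the RefSeq accessions of 11 belong to the gene of that name in the RefSeq table of GRCm38.p6, and 1 lists none. No genome was used, so the exon or UTR of a probe is not given. The members, gene lists and tests were chosen with earlier results of these data known. The text names every member by every probe, and up to 4 called genes of smallest adjusted p per pathway list and 2 per marker list. It also names the 3 genes most correlated with Inha and with Amh, with clones and predicted genes left out. Others are marked as picked later, or stand for a list's few genes called lower. Of the pathway lists, 1 gene is counted but not reported by name here. The labels number 3 testis replicates per group, and each was taken here as 1 testis of a separate mouse. The number of arrays limits the precision.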

Additional observations from a re-analysis of the deposited data

How the results depend on the processing

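Other settings changed the background correction (normexp), the scaling (quantiles, bright probes, spike-in probes, probe median), the source (deposited log2 table), the filter (none, or all 6 arrays), the probes per gene (brightest, or their mean), the model (replicate block, trend, array weights) or the arrays (each left out). The number of family probes called higher was 3 throughout except without WT replicate 1 and without WT replicate 3, where it was 2. The number called lower was 1, or 0 without WT replicate 3 (0 to 1 over the arrays left out). The gene count called lower was 0, or 1 where a gene's probes were averaged, since the mean of both Acvr1b probes was −0.42 (adjusted p = 0.0303). No call of Inha or Inhba was lost.

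Differences that missed the threshold and changed sign were the brighter Acvr1b probe (0.034 with normexp, −0.15 to 0.015 with single arrays left out), the dimmer Acvr2a probe (0.019 with array weights, −0.14 to 0.065 with single arrays left out), Amh (−0.22 to 0.31 with single arrays left out) and, with spike-in scaling, Amhr2 (−0.019), Acvr2b (−0.036), Amh (−0.043), Inhbb (−0.054) and the brighter Acvr2a probe (−0.099). Prkar1a was at 0.14 with the mean of its probes. The causes were not tested.

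Among the pathway lists, the SMAD, AMH and inhibin regulator counts of genes higher fell to 3, 6 and 3 with spike-in scaling. Inhibin regulators called lower were 0 with quantile or spike-in scaling. Over all probes, 6643 were higher and 9267 lower with quantile normalization, 2844 and 9120 with spike-in scaling, 4007 and 7653 without WT replicate 1, and 3822 and 6775 without WT replicate 3, against 5982 and 12946 in the text's setting.

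The replicate numbers were not taken as pairs, though same-numbered testes shared a column of the slide. The deviations of same-numbered testes from their group means correlated at 0.054, −0.155 and 0.045, and those of differently numbered testes at −0.138 to 0.117. With 3 testes per group these values cannot decide whether the numbers pair the testes. With the replicate block, 3 family probes were called higher and 1 lower, with Inha at 0.94 (adjusted p = 0.0193) and Fst at 0.86 (adjusted p = 0.0445). The dimmest spots of the family were those of Inhba and Amh, at intensities down to 120.3 and 127.0.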
